A study of Mus musculus with 6 samples.

Results

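Macrophage and leukocyte markers are 10 genes whose transcripts label macrophages or blood-derived cells in muscle: Adgre1, Cd68, Csf1r, Cd163, Mrc1, Lyz2, Ctss, Lgals3, Ptprc and Tyrobp. They were taken by name from the 52550 mouse genes of the deposited table, and each name matched 1 gene. The samples were quadriceps muscle of male mice aged 13 weeks, 3 with the genotype FLExDUX4 and 3 wild-type (WT) littermates. FLExDUX4 mice are hemizygous for a human DUX4 transgene that sits inverted between lox sites at the Rosa26 locus. No Cre was crossed in, so the mice model leaky, low expression of DUX4, the transcription factor misexpressed in facioscapulohumeral muscular dystrophy, and the level of the transgene was not analysed here. The methods of the study describe triceps of younger mice, whereas the sample labels give the muscle and age above. RNA was read with QuantSeq, which counts the 3′ ends of polyadenylated transcripts, so that scaled counts compare genes without a correction for length.

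Healthy skeletal muscle holds resident macrophages in the connective tissue around fibers and vessels, which clear debris and iron-bearing proteins. They depend on the receptor CSF1R for survival and carry scavenger and lectin receptors on their surface, and recruited monocytes and other leukocytes join them after injury. In bulk muscle RNA, fewer cells of a type and less RNA per cell cannot be told apart.

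The counts were deposited as a sum over the 3 mice of each genotype, and mouse genes took 13110125 counts in the FLExDUX4 sum and 18367364 in the WT sum. Values below are the authors' totals, scaled with edgeR's TMM method and given per 1000000 counts (CPM), and the comparison is the log2 ratio of the FLExDUX4 total to the WT total. With 1 value per genotype, no test across mice could be run, and the 95% intervals cover counting error only. A single mouse can decide a ratio. The 10 markers took 1341 counts in FLExDUX4 mice and 1842 in WT mice, which is 0.0102% and 0.01% of the counts on genes. At this depth 1 count is worth 0.0771 CPM in the FLExDUX4 total and 0.0539 CPM in the WT total. The 10 muscle fiber genes checked against the tissue label summed to 154964 and 157275 CPM, led by Acta1.

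The summed level of the 10 markers was nearly the same in the group totals, 103 CPM in FLExDUX4 mice and 99.3 CPM in WT mice. The log2 ratio of these sums was 0.06 (interval -0.04 to 0.16). Within that sum the markers went different ways. Cd163, the scavenger receptor for hemoglobin bound to haptoglobin, had the highest ratio at 1.89-fold. Tyrobp, Adgre1 and Cd68 had the lowest ratios. Of the 10 markers, 5 were above a log2 ratio of 0 and 5 below it, and the median of 0.00 equals that of the 13396 genes kept by a filter on low counts, which all 10 passed. A fold of at least 1.5 was reached upward by 1 marker and downward by 3. Among all genes kept, 13.2% were higher and 13.5% were lower by that fold. Among the 10475 genes with at least 60 counts, as each marker has, 8.15% were higher and 7.74% were lower. The counting interval lay above 0 for 1 marker and below 0 for 1 marker, against 20.5% and 20.6% of all genes kept.

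The upstream sequences below show the markers with the highest and the lowest ratio among the 7 that had an entry in the RefSeq promoter table (GRCm38.p6), and Mrc1, which had a ratio near 0 and the most matches. Each is the 250 bases before an annotated start, written 5′ to 3′ on the strand of the gene. Capitals mark GAGGAA or its reverse complement TTCCTC, the core bound by PU.1, the transcription factor that directs myeloid development. The window of Cd163 is chr6:124304401-124304650 on the plus strand, that of Cd68 is chr11:69666171-69666420 on the minus strand, and that of Mrc1 is chr2:14229164-14229413 on the plus strand.
Cd163: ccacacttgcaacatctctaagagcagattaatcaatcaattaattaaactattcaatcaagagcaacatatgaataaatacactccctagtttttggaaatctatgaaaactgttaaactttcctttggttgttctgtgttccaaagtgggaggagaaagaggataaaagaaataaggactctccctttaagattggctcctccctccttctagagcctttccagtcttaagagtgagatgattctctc
Cd68: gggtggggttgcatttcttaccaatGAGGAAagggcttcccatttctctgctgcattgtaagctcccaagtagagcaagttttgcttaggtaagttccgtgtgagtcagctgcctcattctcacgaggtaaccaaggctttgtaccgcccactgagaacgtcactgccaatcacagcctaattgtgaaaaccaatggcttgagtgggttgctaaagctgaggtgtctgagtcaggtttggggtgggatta
Mrc1: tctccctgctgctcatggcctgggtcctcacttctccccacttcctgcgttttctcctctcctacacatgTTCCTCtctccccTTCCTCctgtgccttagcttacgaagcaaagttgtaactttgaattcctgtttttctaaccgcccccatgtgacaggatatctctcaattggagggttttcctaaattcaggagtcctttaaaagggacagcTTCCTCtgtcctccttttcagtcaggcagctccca
Of the 8 windows for these 7 genes, 4 held the core on either strand, those of Cd68, Ctss and Mrc1 and 1 of 2 for Ptprc. The core stands in 23.3% of the 32851 windows in the table. No match was found for Cd163, Lyz2 or Lgals3, which says only that these letters are not in these windows. Ratios of the genes with a match ran from that of Cd68 to that of Ptprc. Tyrobp and Adgre1, which had the lowest ratios of the set, had no entry, and whether the match goes with the ratio was not tested.

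The surface receptors of the set had unlike ratios. The gene of Cd163 lies on chromosome 6 of GRCm38, from 124304656 to 124330527. FLExDUX4 mice gave 165 counts for it and WT mice 125, or 12.7 CPM (interval 10.9 to 14.8) against 6.74 CPM (interval 5.61 to 8.02). It was the single marker with more raw counts in the FLExDUX4 total, which is the smaller of the totals. Its log2 ratio was 0.92 (interval 0.57 to 1.26), above that of 92.9% of the genes kept. Mrc1 (chromosome 2, from 14229392 to 14332057), the mannose receptor CD206, is the other classic marker of resident macrophages in the set. Mrc1 had 172 counts against 265, or 13.3 and 14.3 CPM, and a ratio of -0.11 (interval -0.39 to 0.18). The intervals of Cd163 and Mrc1 did not overlap.

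Csf1r, the receptor for the macrophage growth factors CSF1 and IL-34, had 201 counts in FLExDUX4 mice and 285 in WT mice. These are 15.5 and 15.4 CPM, and the log2 ratio was 0.01 (interval -0.26 to 0.28). The 3′ end of Csf1r overlaps the gene Hmgxb3, which lies on the opposite strand. All 426 reads of 75 bases that fit in the last 500 bases of the longest Csf1r transcript also occur, reverse complemented, in transcripts of Hmgxb3. Whether the counting used strand is not given in the sources used here, and without it the reads of these genes cannot be told apart. Hmgxb3 itself had 86 counts against 148, with a log2 ratio of -0.26 (interval -0.67 to 0.13).

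Adgre1 encodes F4/80, the adhesion receptor by which mouse macrophages are commonly stained. It had 24 counts in FLExDUX4 mice and 55 in WT mice, or 1.85 CPM (interval 1.19 to 2.75) against 2.96 CPM (interval 2.23 to 3.86). The log2 ratio was -0.66 (interval -1.44 to 0.04), past the fold of 1.5 but with an interval that holds 0. Its CPM intervals overlapped between the genotypes.

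Tyrobp (chromosome 7, 30413760 to 30417585) encodes DAP12, the adaptor that passes signals from activating receptors such as TREM2. It had 21 counts against 57, or 1.62 CPM (interval 1 to 2.47) in FLExDUX4 mice and 3.07 CPM (interval 2.33 to 3.98) in WT mice. The ratio of -0.90 (interval -1.72 to -0.18) was the lowest of the set, a level 1.87-fold lower in FLExDUX4 mice. Ptprc (chromosome 1, 138062861 to 138175708) encodes CD45, the phosphatase on all nucleated blood cells. Ptprc had 66 counts against 70, or 5.09 and 3.77 CPM, and a ratio of 0.43 (interval -0.08 to 0.94). The pan-leukocyte marker and the myeloid adaptor thus lay on opposite sides of 0, and their intervals did not overlap.

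Lyz2 (chromosome 10, 117277331 to 117282321), the lysozyme of macrophages and neutrophils, was the most abundant marker in both totals. It had 514 counts in FLExDUX4 mice and 747 in WT mice, or 39.6 CPM (interval 36.3 to 43.2) against 40.3 CPM (interval 37.4 to 43.2). Its log2 ratio of -0.02 (interval -0.19 to 0.14) has the narrowest interval of the set. Of the 426 reads of 75 bases that fit in its last 500 bases, 30 are shared with the neighbouring paralog Lyz1, so a few reads of one could be lost or given to the other. Lyz1 had 18 counts against 57, with a log2 ratio of -1.12 (interval -2.00 to -0.36). For the 8 markers other than Lyz2 and Csf1r, none of these reads was shared with another gene.

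The remaining markers are lysosomal proteins and a lectin, and the intervals of their ratios all hold 0 and overlap each other. Cd68 (chromosome 11, 69664213 to 69666153), a glycoprotein of macrophage lysosomes, had 23 counts in FLExDUX4 mice and 52 in WT mice, or 1.77 and 2.80 CPM. Its log2 ratio was -0.64 (interval -1.44 to 0.07). Ctss (chromosome 3, 95526786 to 95556403) encodes cathepsin S, the protease that trims the invariant chain during antigen presentation. Ctss had 91 counts against 111, or 7.01 and 5.98 CPM, and a ratio of 0.23 (interval -0.19 to 0.64). Lgals3 (chromosome 14, 47367751 to 47386160) encodes galectin-3, a lectin of activated macrophages that other cells also make. Lgals3 had 64 counts against 75, or 4.93 and 4.04 CPM, and a ratio of 0.29 (interval -0.22 to 0.79).

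**Figure D1:**
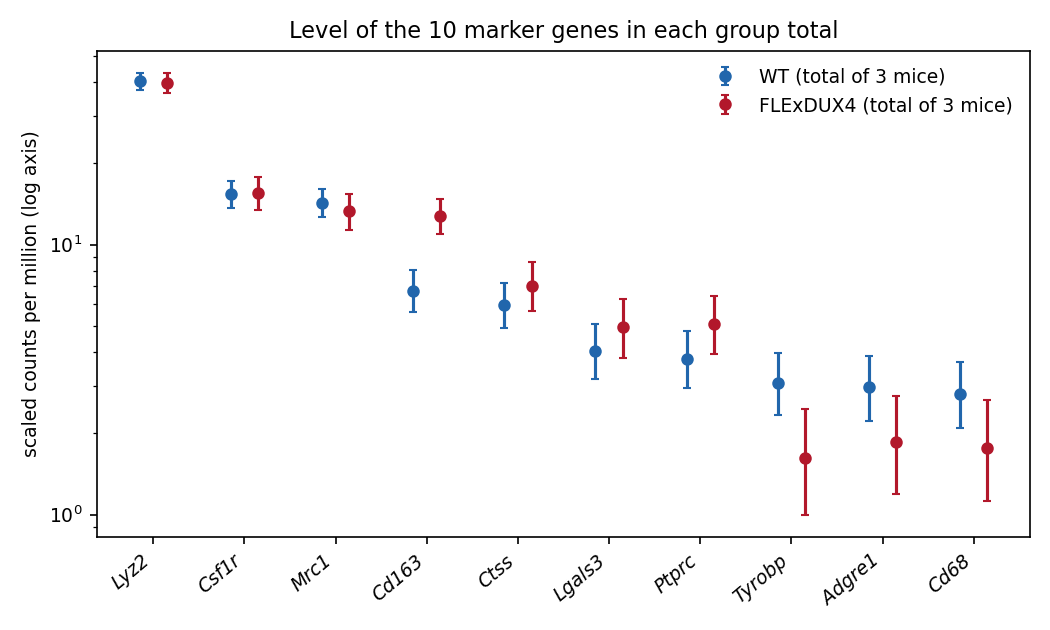
Level of each marker gene in the FLExDUX4 and WT totals, each the sum of 3 mice, as CPM (TMM-scaled) on a log axis, with 95% counting intervals. Lyz2 is the highest in both totals, Cd163 is the gene whose intervals lie clearly apart, and Tyrobp, Adgre1 and Cd68 are lowest in both.

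The order of levels was much the same in both totals. In WT mice it ran Lyz2, Csf1r, Mrc1, Cd163, Ctss, Lgals3, Ptprc, Tyrobp, Adgre1 and Cd68. By counting error, Lyz2 stood above Csf1r and Mrc1 above Cd163, and no other neighbours in that order were separated. In FLExDUX4 mice Cd163, at 12.7 CPM, stood beside Mrc1 and above Ctss, and Lgals3 stood above Adgre1. Tyrobp was the last in FLExDUX4 mice, and the lowest 3 genes could not be ordered in either total.

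**Figure D2:**
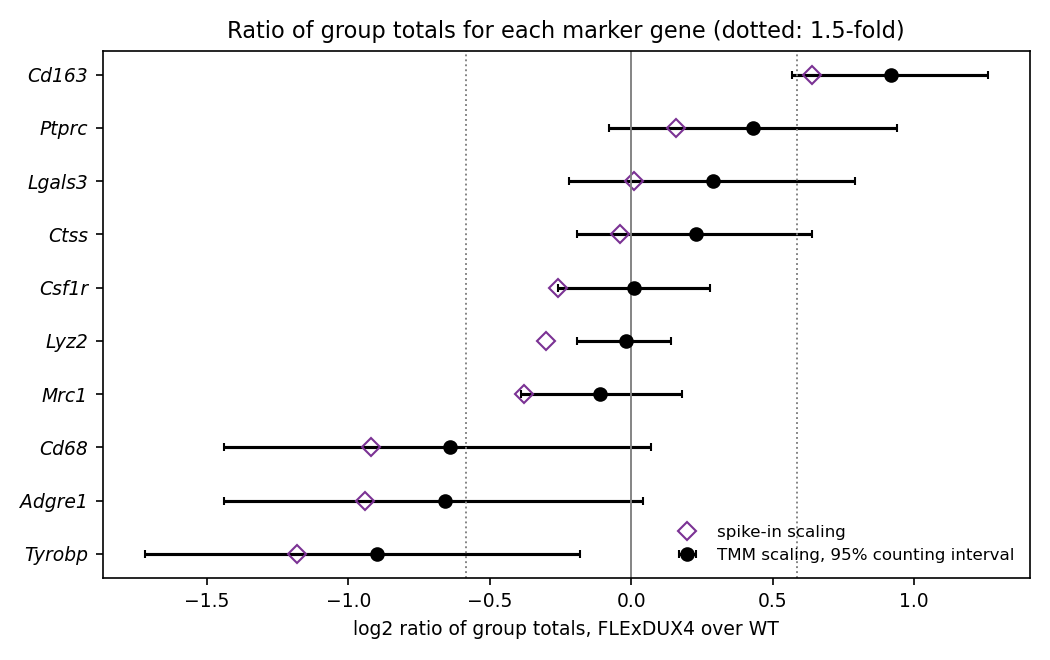
Log2 ratio of the FLExDUX4 total to the WT total for each marker gene, with 95% counting intervals under TMM scaling (circles) and the ratio under spike-in scaling (diamonds). Cd163 lies past the 1.5-fold line on the right and Tyrobp, Adgre1 and Cd68 past that on the left, under either scaling.

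Spike-in RNAs added to the samples give another scale, which lowers every ratio by 0.28 on the log2 scale, that of the median gene included. On that scale Cd163 had a ratio of 0.64, Ptprc of 0.16 and Lgals3 of 0.01, and the other 7 markers were below 0, with Ctss at -0.04, Csf1r at -0.26, Lyz2 at -0.30, Mrc1 at -0.38, Cd68 at -0.92, Adgre1 at -0.94 and Tyrobp at -1.18. Relative to the shift of the median gene, the ratios are those under TMM.

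A view that needs no scaling is the share of each gene among the counts on the 10 markers. Cd163 took 12.3% of them in FLExDUX4 mice (Clopper-Pearson interval 10.6 to 14.2) and 6.79% in WT mice (interval 5.68 to 8.03). Tyrobp took 1.57% (interval 0.972 to 2.38) and 3.09% (interval 2.35 to 3.99), intervals that overlap by little. Lyz2 held the largest share, 38.3% and 40.6%, and Csf1r held 15.0% and 15.5%. Of the 45 pairs of markers, 7 had ratios whose counting intervals did not overlap, and Cd163 was the higher gene in 6 of them. The widest gap between such genes was 1.82 on the log2 scale, between Cd163 and Tyrobp. The pair without Cd163 was Ptprc and Tyrobp, with a gap of 1.33. The share of such pairs among all genes kept was not computed, so whether 7 of 45 is unusual is not known.

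**Figure D3:**
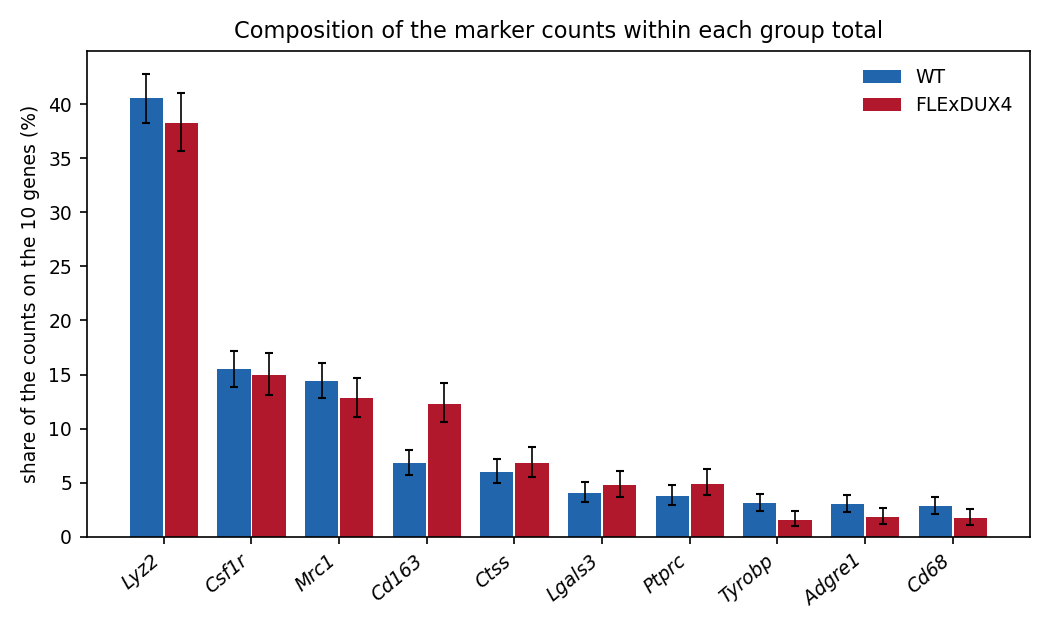
Share of each marker gene among the counts on the 10 genes within each total, in percent, with 95% Clopper-Pearson intervals. The bars of Cd163 are 12.3% in FLExDUX4 mice and 6.79% in WT mice, and its intervals do not overlap, while those of Lyz2, Csf1r and Mrc1 do.

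The genes around CSF1R and DAP12 were read from a list of 18 ligands, partner receptors and kinases, of which 13 passed the filter. Of these, 4 were higher and 1 was lower by at least 1.5-fold, against 13.2% and 13.5% of all genes kept. The median log2 ratio of the list was 0.31, or 0.04 on the spike-in scale and -0.04 when at least 10 counts were required in each total. The ligands of CSF1R had ratios whose intervals overlap. Csf1 had 78 counts in FLExDUX4 mice and 140 in WT mice, a ratio of -0.32 (interval -0.75 to 0.08), and Il34 had 90 against 94, a ratio of 0.45 (interval 0.02 to 0.89). Fcer1g, the Fc receptor gamma chain, which like DAP12 is an adaptor with an activating motif, had 80 against 117, with a log2 ratio of -0.03 (interval -0.46 to 0.39). Lyn, a Src-family kinase, had 136 against 131, with a log2 ratio of 0.57 (interval 0.21 to 0.93), just short of the fold of 1.5. Among the genes kept, the one that was lower was Fcgr3, an Fc receptor that uses that gamma chain, with 28 counts against 66 and a log2 ratio of -0.71 (interval -1.41 to -0.06). The genes that were higher, named after their values were seen, had few counts: Csf2rb (27 against 8), Plcg2 (12 against 3), Csf2ra (13 against 9) and Inpp5d (27 against 23). Csf2rb, Plcg2 and Csf2ra have under 10 counts in the WT total and passed the filter through the FLExDUX4 total, which favours upward ratios. Trem2, a receptor that signals through DAP12, had 5 counts against 4 and did not pass the filter. Btk, a kinase of myeloid and B cells named after its values were seen, did not pass it either, with 0 counts in FLExDUX4 mice and 14 in WT mice, or up to 0.231 CPM, the level that a count of 0 allows, against 0.754 CPM.

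Further markers of resident macrophages also lay on both sides of 0. Of 16 listed, 14 passed the filter, 3 of them higher and 1 lower by at least 1.5-fold, against 13.2% and 13.5% of genes kept. Their median was 0.16 on the log2 scale under TMM and -0.12 with the spike-in scale. Mertk, the receptor for engulfing dying cells, was highest with 179 counts in FLExDUX4 mice and 114 in WT mice, a ratio of 1.17 (interval 0.82 to 1.52). Lyve1, which resident macrophages near vessels share with lymphatic endothelium, had 133 against 115, with a log2 ratio of 0.73 (interval 0.36 to 1.10), and Ms4a7 had 42 against 30, or 3.24 and 1.62 CPM. Ms4a7 was named after its values were seen. The lower gene was C1qb, a subunit of complement C1q, with 54 counts against 119 and a log2 ratio of -0.62 (interval -1.12 to -0.15), while C1qa had 0.08 and C1qc had -0.14. Pf4, named after its values were seen, had 209 counts against 373, with a log2 ratio of -0.32 (interval -0.57 to -0.07). The most abundant genes of the list, Gas6, F13a1 and Cbr2, had ratios of -0.06 (interval -0.17 to 0.06), 0.23 (interval -0.01 to 0.47) and 0.24 (interval 0.00 to 0.48). Fcgr1 and Vsig4 had 0 counts in both totals, which allows up to 0.231 CPM in FLExDUX4 mice and 0.162 CPM in WT mice.

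Transcription factors that build the myeloid program, 8 of 8 kept, had a median log2 ratio of -0.05. By at least 1.5-fold, 2 were higher and 1 was lower, against 13.2% and 13.5% of all genes kept. Spi1, which encodes PU.1, had 15 counts in FLExDUX4 mice and 22 in WT mice, a ratio of -0.02 (interval -1.09 to 0.98). Irf8 and Irf5 had ratios of -0.35 (interval -0.70 to -0.02) and -0.67 (interval -1.34 to -0.05), Cebpb of 0.15 (interval -0.01 to 0.30) and Runx1 of 0.61 (interval 0.00 to 1.22).

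Other genes of leukocytes at large gave the same middle value as the 10 markers. Of 15 such genes 13 passed the filter, with a median log2 ratio of 0.00. Past 1.5-fold were 2 higher and 3 lower, against 13.2% and 13.5% of all genes kept. Lsp1 had 209 counts in FLExDUX4 mice and 277 in WT mice, a ratio of 0.11 (interval -0.16 to 0.37), Arhgdib had 0.00 and Cyba had 0.26. Lcp1, the actin-bundling plastin of leukocytes, had 57 against 113, with a log2 ratio of -0.46 (interval -0.96 to 0.00). Of the 12 cathepsins and lysosomal glycoproteins that many cell types express, none was past 1.5-fold in either direction, and their ratios lay between -0.29 for Ctsa and 0.29 for Ctsc. Ctsb, Ctsd and Lamp1, the most abundant, had ratios of 0.20, 0.03 and -0.10. The lysosomal markers above, from -0.64 for Cd68 to 0.23 for Ctss, had far fewer counts than Ctsb, Ctsd and Lamp1. Ctsk of the same list, named after its values were seen, had 37 counts in FLExDUX4 mice against 51 in WT mice and a log2 ratio of 0.06. Whether the number of counts sets the range was not tested.

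Markers of the other cell types in muscle had these summed levels beside the 103 and 99.3 CPM of the markers. Endothelial genes, led by Flt1, Kdr and Pecam1, summed to 324 CPM in FLExDUX4 mice and 336 CPM in WT mice. By at least 1.5-fold, 1 of 12 was higher, Lyve1, and 1 lower, Tek, against 13.2% and 13.5% of all genes kept. Fibroblast genes, led by Dcn, Gsn and Col1a1, summed to 1911 and 1772 CPM, with a median log2 ratio of 0.05 over 8 genes and none past 1.5-fold. Erythroid genes summed to 1279 and 1020 CPM, and the 5 kept had ratios from 0.25 for Hba-a1 to 0.45 for Alas2, which became -0.02 and 0.17 on the spike-in scale. Muscle fiber genes had ratios from -0.19 for Myh1 to 0.05 for Ckm. Genes of neutrophils, which also express Lyz2 and Tyrobp, summed to 2.08 and 8.62 CPM with their defining marker Ly6g at 0 counts in both totals, and mast cell genes to 15.6 and 9.11 CPM. The part of these cell types in the ratios of the markers was not tested.

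**Figure D4:**
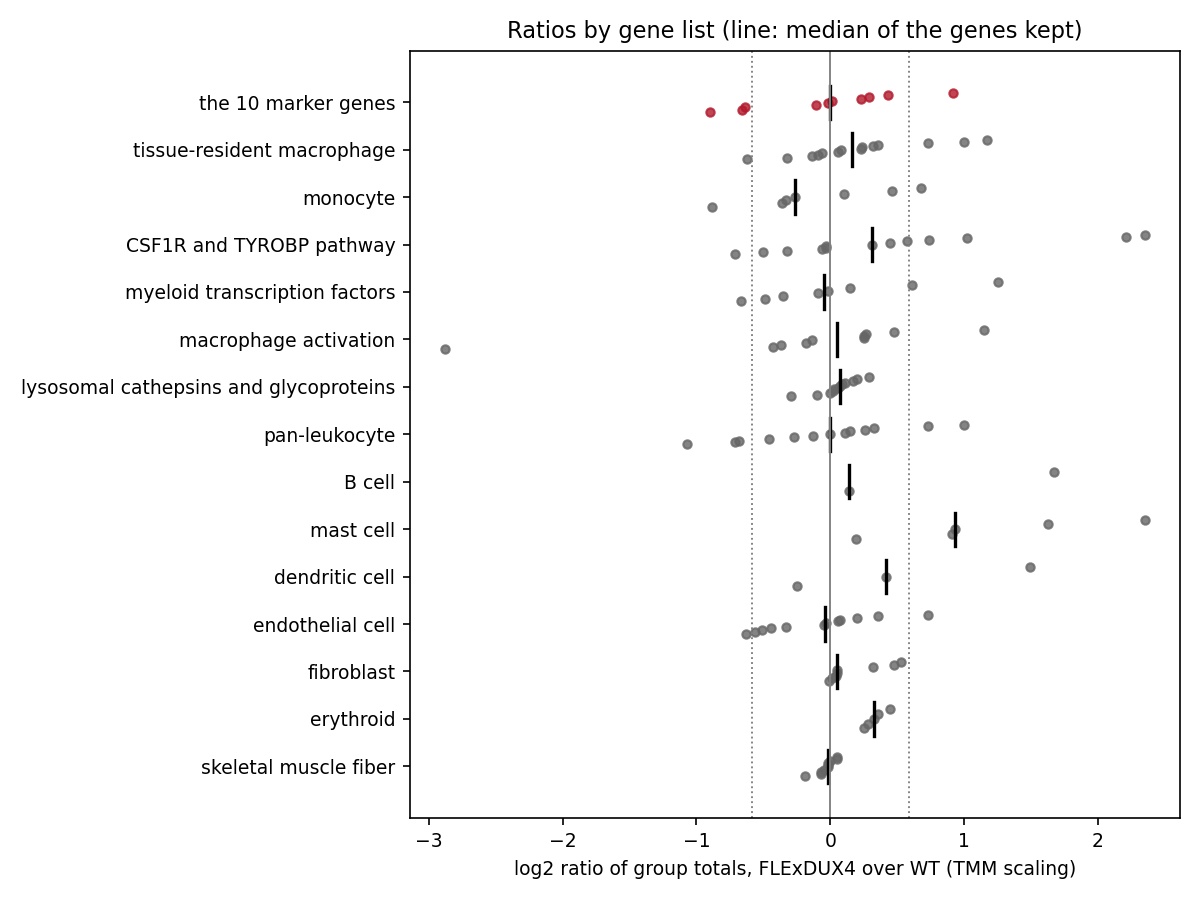
Log2 ratio of the FLExDUX4 total to the WT total for each gene kept, by gene list, with the median of each list as a vertical line. Only lists with at least 3 genes kept are drawn, so the neutrophil list, with 2 kept, and the T cell and NK cell list are absent. The 10 marker genes and the pan-leukocyte genes have their medians at 0.00, and Pax5 of the B cell list, with 0 counts in FLExDUX4 mice, has no point.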

How the data were processed

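RNA of quadriceps was sequenced from 3 FLExDUX4 and 3 WT mice. The authors trimmed reads with Cutadapt 1.16 and aligned them with STAR 2.5.3a to GRCm38 joined to ERCC and SIRV spike-ins. The submitters' processing notes also list featureCounts 1.6.2. The deposited table holds counts per feature summed over each genotype, not normalized, and these were used. A further 6 columns of values per sample match no sample label and were not used, nor were the columns of the authors' own comparison (mean, fold change, statistic and p-values).

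The plan called for edgeR's quasi-likelihood test where values per sample match the labels. None did, so no test was run. Spike-ins, with 220016 counts in the FLExDUX4 total and 259913 in the WT total, were kept out of library sizes. The 2 totals were brought to one scale with edgeR 4.0.16 under R 4.3.3, using TMM factors from the 13396 genes that filterByExpr kept. Log2 ratios took a pseudocount of 0.5, with 95% Clopper-Pearson intervals from the binomial share of each gene's counts (scipy 1.17.1 in Python 3.11.15), while intervals of CPM are exact Poisson intervals. A total of up to 3 counts was treated as the floor. The scripts were tested on simulated data.

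The members and the 16 further gene lists were chosen with earlier results of these data known. Named genes are the 10 markers and, from each list, the 3 with the most counts and the highest and lowest ratio among those kept with at least 60 counts, with paralogs and ligands of a marker. Any other gene named from a list was chosen with its values known. A gene that this rule names is not reported here. A symbol found on several rows is represented by that with the most counts. Coordinates are from GENCODE on GRCm38, given where the start equals the deposited one. Alternatives covered 5 other scalings, filters, pseudocounts and folds.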

Additional observations from a re-analysis of the deposited data

How the results depend on the processing

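No paired analysis was possible because the columns used are sums over the mice of a genotype and carry no replicate. For the same reason the edgeR and DESeq2 tests and leaving out each replicate were not run. With the fold lowered from 1.5 to 25% above equal levels, 2 markers were higher and 3 lower, against 22.65% and 22.84% of all genes kept, and with a fold of 2 the count was 0 in each direction, against 5.99% and 7.43%. The log2 ratio of the summed level was -0.22 with spike-in totals and lay between -0.03 without Cd163 and 0.11 without Lyz2 when each marker was left out in turn. The number of markers past 1.5-fold did not move with the scaling, filter or pseudocount, and their median ratio lay between -0.03 and 0 except with spike-in totals, where it was -0.28. Csf1r, near 0, and Ctss changed sign under some scalings (to -0.26 and -0.04 with spike-in totals). Csf1r and Lyz2 moved beyond their counting intervals with spike-in totals, as every gene is shifted alike. The share of all genes past 1.5-fold depends on the filter on low counts and on the scaling. It went from 13.22% higher and 13.53% lower among the genes kept to 20.82% and 25.06% with no filter, and is 7.82% and 23.69% with spike-in totals. With no filter the median of the B cell list moved from 0.14 to -1.08 and that of the dendritic cell list from 0.42 to 1.48, since genes with few counts then enter. For Tyrobp, Adgre1 and Cd68, 21 to 24 counts in FLExDUX4 mice limit the precision.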

Other observations

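Among other leukocytes, 4 genes of mast cells were higher and 2 of neutrophils lower by at least 1.5-fold in the FLExDUX4 total, all from few counts. Of 8 mast cell genes 5 passed the filter, all with ratios above 0 and with a median log2 ratio of 0.93. Of these, 4 passed that fold upward, which 13.2% of all genes kept did. Hdc (12 counts in FLExDUX4 mice against 3 in WT mice) and Mcpt4 (20 against 9), named after their values were seen, are among these 4. Both have under 10 counts in the WT total and passed the filter through the FLExDUX4 total, which favours upward ratios. With at least 10 counts required in each total the median was 0.9. Ms4a2, which was not kept, had 0 counts in FLExDUX4 mice and 4 in WT mice. The proteases Tpsb2 and Cma1 had 56 counts in FLExDUX4 mice against 42 in WT mice and 58 against 44, ratios of 0.93 (interval 0.33 to 1.54) and 0.91 (interval 0.32 to 1.51), while Cpa3, another protease of their granules, had 47 against 59, with a log2 ratio of 0.19 (interval -0.40 to 0.77). The summed level was 15.6 CPM against 9.11 CPM. Of 10 neutrophil genes, 2 passed the filter, and both passed the fold downward, which 13.5% of all genes kept did. S100a9 and S100a8, which encode the subunits of calprotectin, had 13 counts against 105 and 11 against 37, ratios of -2.45 (interval -3.45 to -1.66) and -1.19 (interval -2.35 to -0.23). Retnlg had 1 count against 8 and was not kept, and Ly6g, the defining surface marker, had 0 counts in both totals. How many mice carry these differences was not analysed here.

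Genes of lymphocytes were close to the floor. None of 17 genes of T cells and NK cells passed the filter, and they summed to 17 counts in FLExDUX4 mice and 28 in WT mice, among them Trbc2 with 11 against 2, Cd2 with 0 against 11 and Lck with 0 against 5. The B cell list was carried by Ighm, with 482 counts against 625 and a log2 value of 0.14 (interval -0.03 to 0.32), while Igkc had 14 against 6 and Pax5 had 0 against 17, where a count of 0 allows up to 0.231 CPM and 17 counts are 0.916 CPM. The median of the 3 genes kept was 0.14, also with Pax5 set at the floor of 3 counts. Of 8 dendritic cell genes 3 were kept, with a median of 0.42, and Siglech had 28 against 14, with a log2 ratio of 1.49 (interval 0.54 to 2.56), whereas Cd209a and Zbtb46 had 0.42 and -0.25.

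Monocyte genes, 7 of 10 kept, had a median log2 ratio of -0.26. By at least 1.5-fold, 1 was higher and 1 lower, against 13.2% and 13.5% of all genes kept. They were Cx3cr1 (9 counts in FLExDUX4 mice against 8 in WT mice) and Plac8 (5 against 14), both from few counts and named after their values were seen. Nr4a1 had 1595 counts against 2876, with a log2 ratio of -0.33. At 122.9 CPM in FLExDUX4 mice and 155.0 CPM in WT mice it is above the sum of the 10 markers, so it is not read as a level of monocytes. Fn1, which fibroblasts also express, had 0.10, Vcan had -0.36 and Ace had 0.46. Of 17 genes of macrophage activation 10 were kept, with a median of 0.05. Against 13.2% and 13.5% of all genes kept, 1 was higher and 1 lower by at least 1.5-fold. These, named after their values were seen, were the chemokine gene Ccl8, with 22 counts in FLExDUX4 mice against 14 in WT mice (log2 ratio 1.15, interval 0.14 to 2.25), and Tgfb1, which many cell types express, with 4 against 47 (log2 ratio -2.88, interval -4.97 to -1.59). The abundant Ccl6 and Retnla had ratios of 0.48 (interval 0.24 to 0.72) and 0.25 (interval 0.02 to 0.48), Cd9 and Fabp5 had -0.18 and -0.43, and the cytokine genes Tnf, Il6 and Il10 had 0 counts in both totals.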
